A study of Mus musculus with 30 samples.

Results

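Cytochrome P450 enzymes other than Cyp1a1, Cyp1b1, Cyp2f2 and Cyp7b1 were followed across whole lung of C57BL/6 mice of 2 ages under 4 treatments. The members were chosen by name and by signal: a probe set belonged when its single gene symbol was Cyp followed by digits, a letter and digits, and when its intensity exceeded the median of its own array on at least 3 arrays. Of 85 probe sets that met the name rule, which stand for 66 genes, 28 met the rule on signal, and they stand for 22 genes. The array carried 45037 probe sets, and 13089 genes met the same rule on signal and were tested.

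Cytochromes P450 are haem proteins that insert an atom of molecular oxygen into a substrate, with electrons that reach them from partner proteins such as P450 reductase, cytochrome b5 or ferredoxin. Some members break down foreign compounds, and others make or remove fatty acid derivatives, sterols, steroid hormones or retinoic acid. In the lung many of them are concentrated in the secretory cells of the airways, known as club cells, and the mouse lung is a well-known site of injury by compounds that these enzymes activate.

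The series holds 30 Affymetrix mouse 430 2.0 arrays, each with total RNA from the lung of a single animal. Juvenile mice were 21 days old and adults 16 weeks old. Controls were untreated and breathed spontaneously. Mice given LPS, the endotoxin of E. coli 0111:B4, inhaled an aerosol of 20 mL at 0.1 mg/mL for 30 minutes and then breathed on their own for 2 hours. Mechanical ventilation, written MV, used a tidal volume of 15 mL/kg, 80 breaths per minute, 30% oxygen and an end-expiratory pressure of 2 cm H2O for 2 hours. The combined group, LPS+MV, was ventilated straight after the aerosol. There were 4 animals in each group except juvenile MV and juvenile LPS+MV, which had 3. Intensities are the deposited values, on a linear scale, and how the background of the array was treated is not known. They are compared between arrays for the same probe set and never between genes. Fold changes are differences of log2(intensity + 32) with their standard error from a limma model over all 30 arrays, and they understate the change of dim genes. A gene passed when its adjusted p was below 0.05, by limma with the Benjamini-Hochberg adjustment over all 13089 genes of that comparison. Since each array is 1 animal, p-values measure the spread between animals of these groups.

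Array medians ran from 21.6 to 22.8. Xist, which is made in female cells, was above 100 on 4 of 4 adult MV arrays and 3 of 4 adult LPS+MV arrays, and on none (0 of 4 each) of the adult control or LPS arrays. Among juveniles it was above that level on 1 control array, 1 MV array, 2 LPS+MV arrays and 0 LPS arrays. Between adult MV and adult control, ventilation and the sex of the animals therefore cannot be told apart. Between adult LPS+MV and adult control or adult LPS, treatment and sex are confounded on 3 of the 4 LPS+MV arrays. The 4 arrays with the lowest mean correlation to their own group were juvenile control replicate 4, juvenile MV replicate 3, juvenile LPS+MV replicate 3 and adult LPS+MV replicate 2, with mean correlations of 0.9793 to 0.9834. The 7 alveolar type 2 markers tested summed to between 49870 and 58900 on every array, a sum that weights the brightest of them most, and the 3 liver markers to between 80.8 and 130.2.

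By role, 10 of 17 genes of fatty acid and eicosanoid metabolism met the rule on signal, as did 6 of 33 foreign compound enzymes, 2 of 5 sterol and bile acid enzymes, 2 of 5 steroid hormone enzymes, 1 of 2 enzymes of retinoic acid breakdown and the orphan enzyme Cyp20a1. None of the 3 vitamin D enzymes did. Of the 22 members, 16 exceeded the array median on 29 or 30 arrays. The other 6 were Cyp17a1, Cyp2u1, Cyp2j9, Cyp4f39, Cyp4f15 and Cyp2c68, on 19, 14, 13, 13, 12 and 8 arrays respectively. Just outside the rule were Cyp2d13 and a second probe set of Cyp2j6, each above the median on 2 arrays. Cyp4f15 was above it on 11 of 16 adult and 1 of 14 juvenile arrays, and Cyp4f39 on 11 of 16 and 2 of 14, so both met the rule through the adults.

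RefSeq promoters, from 250 bases before to 50 bases after the start given for a gene in that RefSeq table (build GRCm38.p6), were matched for 17 of the 22 members. Those of 4 members that differed by age are shown, because they are the genes whose levels the results turn on: Cyp4b1 (chr4:115647672-115647971, minus strand), Cyp2b10 (chr7:25897408-25897707, plus strand), Cyp2e1 (chr7:140763569-140763868, plus strand) and Cyp4f18 (chr8:72009577-72009876, minus strand). Capitals mark a match to a searched motif, and Cyp4b1 holds none.
Cyp4b1: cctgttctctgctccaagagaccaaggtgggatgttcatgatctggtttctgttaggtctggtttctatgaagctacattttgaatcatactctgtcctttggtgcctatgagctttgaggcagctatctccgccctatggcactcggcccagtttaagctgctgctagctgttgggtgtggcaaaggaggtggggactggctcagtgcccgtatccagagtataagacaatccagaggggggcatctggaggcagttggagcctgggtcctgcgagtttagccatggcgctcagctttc
Cyp2b10: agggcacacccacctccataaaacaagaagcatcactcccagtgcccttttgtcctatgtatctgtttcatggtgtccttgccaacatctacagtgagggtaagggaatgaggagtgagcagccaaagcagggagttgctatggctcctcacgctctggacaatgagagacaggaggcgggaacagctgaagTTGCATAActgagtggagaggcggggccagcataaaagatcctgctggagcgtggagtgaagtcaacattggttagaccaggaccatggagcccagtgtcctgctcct
Cyp2e1: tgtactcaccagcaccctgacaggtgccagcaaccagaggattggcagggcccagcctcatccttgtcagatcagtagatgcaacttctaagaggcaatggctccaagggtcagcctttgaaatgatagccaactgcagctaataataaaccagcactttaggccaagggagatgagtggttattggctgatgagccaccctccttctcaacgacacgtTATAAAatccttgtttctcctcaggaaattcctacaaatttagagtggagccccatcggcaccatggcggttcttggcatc
Cyp4f18: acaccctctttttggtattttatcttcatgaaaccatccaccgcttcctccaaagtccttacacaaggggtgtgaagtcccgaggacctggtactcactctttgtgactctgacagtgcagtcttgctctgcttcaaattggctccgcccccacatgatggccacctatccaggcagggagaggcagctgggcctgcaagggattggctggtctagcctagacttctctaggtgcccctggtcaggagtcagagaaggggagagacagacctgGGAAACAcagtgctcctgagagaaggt
Positions are counted from that start, and a gene can have other annotated starts. The motifs were searched on both strands. TATAAA, the TATA box, stands in Cyp2e1 at bases -31 to -26, in 3 of the 17 promoters and in 13.6% of all 32851 RefSeq promoters. TTGCNNAA, a form of the C/EBP motif, stands in Cyp2b10 at -58 to -51, in 3 of 17 promoters and in 10.8% of all. TGTTTNC, a form of the FOXA motif, is on the other strand of Cyp4f18 at 24 to 30, in 2 of 17 and in 20.5% of all. CTCAAG, a form of the NKX2-1 motif, was in 3 of 17 and 15.9% of all, and a form of the NF-kB motif, GGG and TTTCC with 2 bases between, in 0 of 17 and 1.63% of all. The 4 promoters shown share no match to the same motif.

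The first comparison asked how untreated adult lung differed from untreated juvenile lung. Of the 22 members, 12 were higher in adults and 0 were lower, against 15.1% higher and 10.1% lower among all genes tested (25.2% called in all). The 12 include Cyp4f15 and Cyp4f39, which met the rule on signal through the adults, so that rule favoured this direction for them. The median difference was 0.22 on the log2 scale over the members and 0.01 over all genes. Among the 16 members that exceeded the median on 29 or 30 arrays, 9 were higher and 0 lower, beside 15.5% higher and 10.7% lower of the 11265 genes with that property. In 12 of the 22 members the 2 control groups did not overlap on any array, beside 22.1% of all genes. These are not the same 12 genes. Cyp2d22, Cyp2j9 and Cyp4f16 passed with overlap, and Cyp2a12, Cyp2j6 and Cyp17a1 had no overlap but did not pass. Of the latter, Cyp2j6 and Cyp17a1 had their lower intensities in adults.

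Cyp4b1, which hydroxylates fatty acids and activates several lung toxins, had intensities of 1708, 2128, 1775 and 2491 in juvenile controls. In adult controls they were 4168, 4327, 4061 and 4315. Every adult array lay above every juvenile array. The group means were 2026 ± 361 (SD, n = 4) and 4218 ± 127 (SD, n = 4), a ratio of 2.08. The log2 difference was 1.06 ± 0.10 (SE, adjusted p = 2.48e-08). The same order held under each treatment: the lowest adult exceeded the highest juvenile array in MV, LPS and LPS+MV as well, with adult means 2.09, 1.65 and 1.66 times the juvenile means.

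Cyp2s1, an enzyme of airway and other surface epithelia, was 236, 275, 299 and 307 in juvenile controls. It was 605, 637, 564 and 547 in adult controls. The groups were well apart, with a log2 difference of 0.999 ± 0.11 (SE, adjusted p = 2.66e-07). Adults lay above juveniles on every array under each of the other treatments too, and the adult mean was 2.94 times the juvenile mean in MV, 2.04 times in LPS and 2.04 times in LPS+MV.

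Cyp2b10, which is inducible by phenobarbital-type compounds in liver and present in airway cells of the lung, read 485, 607, 364 and 674 in juvenile controls. In adult controls it read 1333, 1154, 1312 and 1544. Again no adult array fell within the juvenile range, and the log2 difference was 1.30 ± 0.21 (SE, adjusted p = 4.43e-05). The probe set may also bind related transcripts, and the 3 probe sets of the gene gave 1.40, 1.30 and 1.16. The ages were apart in MV and LPS but overlapped in LPS+MV, where a juvenile array read 1438 and an adult array 1280.0.

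Cyp2e1, which oxidises ethanol and small solvents, had the largest log2 difference by age of the 22 members. It was 99.6, 104, 103 and 152 in juvenile controls. It was 342, 306, 465 and 498 in adult controls. The adults were all above the juveniles and also more spread, with means of 115 ± 24.9 and 403 ± 93.2 (SD, n = 4 each). The log2 difference was 1.56 ± 0.33 (SE, adjusted p = 0.000849).

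Cyp4v3, the mouse form of a fatty acid hydroxylase that is mutated in a human corneal and retinal dystrophy, was 180.2, 187, 193 and 222 in juvenile controls. Adult controls gave 373, 385, 346 and 329, all above the juveniles, with a log2 difference of 0.78 ± 0.09 (SE, adjusted p = 3.99e-07). Its second probe set gave 0.57. Cyp2d22, a member of the drug-metabolising 2D family, was 54.3, 92.9, 62.3 and 140.1 in juvenile controls and 139, 157, 139 and 158 in adult controls. The highest juvenile array, replicate 4, reached the adult range, and the log2 difference was 0.65 ± 0.17 (SE, adjusted p = 0.00571).

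**Figure D1:**
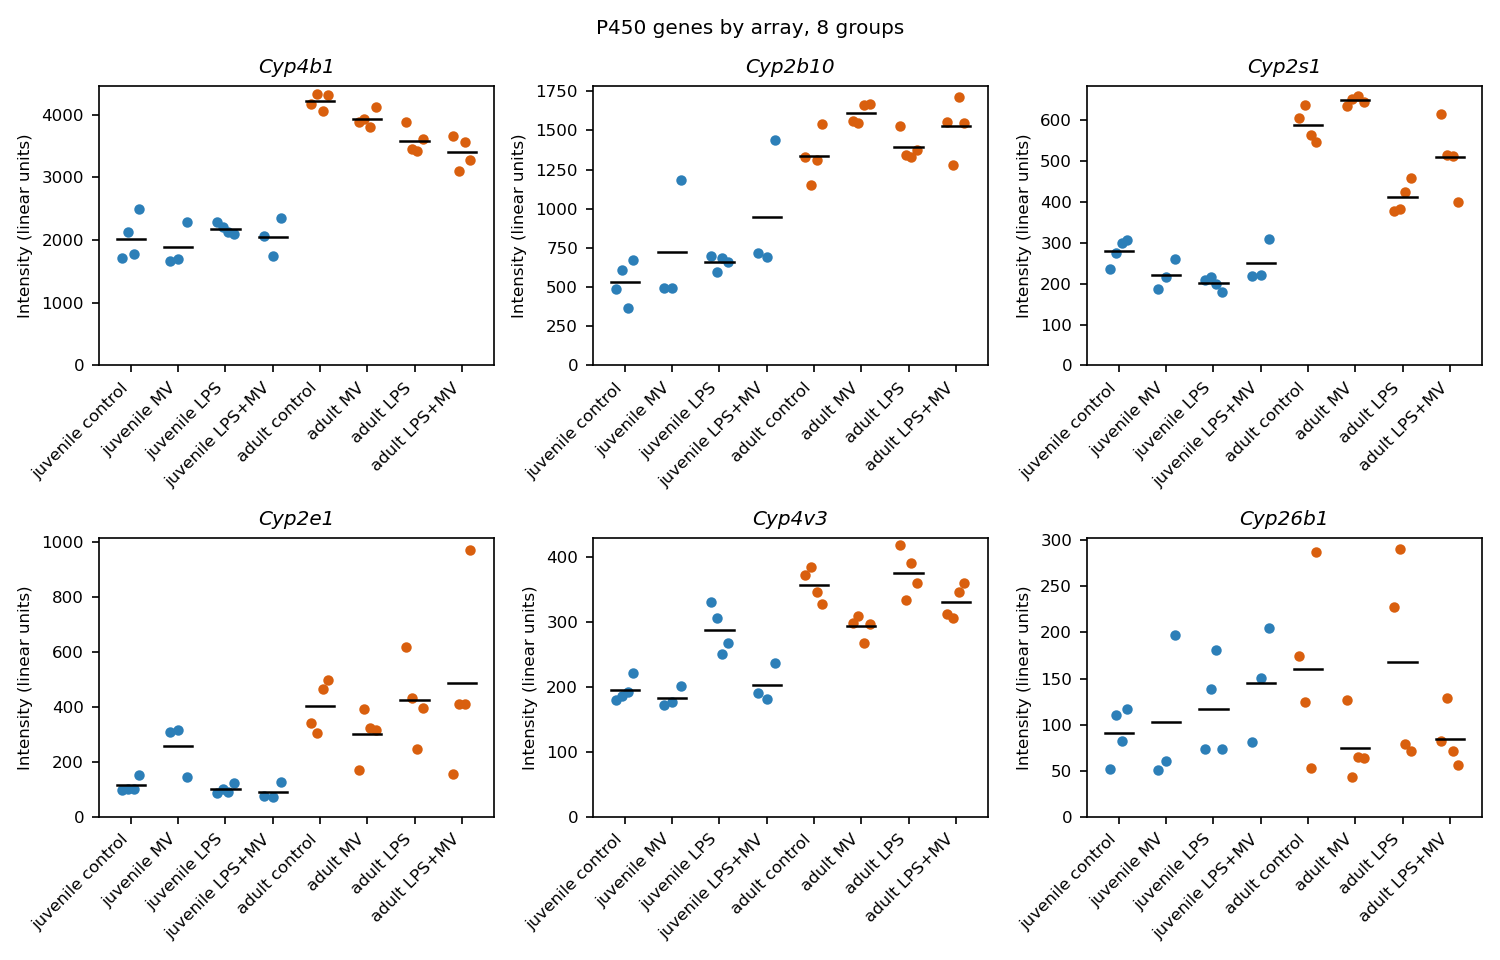
Intensity on each of the 30 arrays (points; linear scale) by group for Cyp4b1, Cyp2b10, Cyp2s1, Cyp2e1, Cyp4v3 and Cyp26b1, with lines at the group means. For Cyp4b1, Cyp2s1 and Cyp4v3 every adult array lies above every juvenile array of the same treatment, whereas Cyp26b1 overlaps between ages in all 4 treatments.

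Airway cell markers differed between the control groups too, as did markers of other cells. Of 10 airway secretory markers tested, 7 were higher in adult than in juvenile controls and 0 lower, with a median log2 difference of 0.49, and their summed intensity was 45170 to 53080 in juvenile and 63860 to 69350 in adult controls. All 6 ciliated cell markers tested were higher. Among other lists, 2 of 5 alveolar type 1, 1 of 7 alveolar type 2 and 2 of 6 macrophage markers were higher and 0 lower. Of 6 endothelial markers 1 was lower, and of 6 fibroblast and matrix markers 4 were lower and 1 higher (median -0.72). In whole lung, more cells of a type and more RNA per cell cannot be told apart, and the part of cell numbers in the P450 differences was not tested.

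Cyp4f18, which hydroxylates the neutrophil attractant leukotriene B4 and is known from mouse neutrophils, read 46.1, 74.9, 67.9 and 73.2 in juvenile controls. In adult controls it read 126, 124, 243 and 207. The groups did not overlap, and adult replicates 3 and 4 were well above replicates 1 and 2. The log2 difference was 1.05 ± 0.17 (SE, adjusted p = 4.35e-05), and it was 0.90 without adult control replicate 3 and 0.97 without replicate 4. Neutrophil markers moved in the same direction: all 4 of the 4 tested (S100a8, S100a9, Csf3r and Cxcr2, out of 6 listed) were higher in adult controls. Their summed intensity was 841, 994, 2130 and 3796 in juvenile controls and 3880, 2448, 16900 and 22120 in adult controls. The same 2 adult arrays were high in both, and the part of neutrophil number in the Cyp4f18 difference was not tested.

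The other Cyp4f genes lie together on chromosome 17 and differed less. Cyp4f15 was higher by 0.24 ± 0.05 (SE, adjusted p = 0.000752), with arrays of 15.4 to 21.9 in juvenile and 25.1 to 30.4 in adult controls. Cyp4f39, which hydroxylates very long fatty acids of the skin barrier, was higher by 0.22, Cyp4f13 by 0.21 and Cyp4f16 by 0.21, with adjusted p of 0.0398, 0.0168 and 0.0261. Cyp2j9, of a subfamily that makes epoxides of arachidonic acid, was higher by 0.12 (adjusted p = 0.0492). The signals of Cyp4f15, Cyp4f39 and Cyp2j9 lay close to the array median in both groups, so these differences are small in intensity. Cyp4f15 and Cyp4f39 also became members through the adult arrays. Their higher level in adults is therefore not independent of the rule that chose them. The second probe set of Cyp4f16 gave -0.04, so the 2 probe sets of that gene disagree.
The small differences of Cyp2j9, Cyp4f39, Cyp4f16 and Cyp4f13 were near the threshold, and each was lost when any 1 of several arrays was left out. The 7 members with a log2 difference above 0.5 passed without each of the 8 control arrays. Cyp2j9 no longer passed without juvenile control replicate 1, 2 or 3 or adult control replicate 1, 2 or 4 (adjusted p of 0.0697 to 0.159). Cyp4f39 no longer passed without juvenile control replicate 1, 2 or 3 or adult control replicate 2 or 4 (0.0709 to 0.138), Cyp4f16 without juvenile control replicate 1, 3 or 4 or adult control replicate 3 or 4 (0.0523 to 0.134), and Cyp4f13 without juvenile control replicate 1 or adult control replicate 4 (0.0847 and 0.0696).

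Of the 10 members that did not pass between ages, Cyp26b1 had the widest interval. This enzyme breaks down retinoic acid, and it read 52.4, 111, 82.4 and 118 in juvenile and 175, 124, 53.5 and 287 in adult controls. Adults were thus both the highest and nearly the lowest of the 8 arrays. The log2 difference was 0.53 with a 95% interval of -0.28 to 1.33 (adjusted p = 0.358). Cyp20a1, for which no substrate is established, read 562, 482, 621 and 435 in juvenile and 518, 482, 401 and 430.1 in adult controls. The ranges overlapped, with -0.18 and an interval of -0.42 to 0.06 (adjusted p = 0.293), and its second probe set gave -0.35 ± 0.11 (SE, adjusted p = 0.027 over all probe sets). Cyp2j6 was 48.4 to 59.6 in juvenile and 34.9 to 47.7 in adult controls, without overlap, with a log2 difference of -0.20 and an interval of -0.41 to 0.01 (adjusted p = 0.152). The steroid enzymes Cyp17a1 and Cyp21a1, which act in androgen and corticosteroid synthesis, differed by -0.09 and 0.03, and the 1 adrenal and gonad marker tested, of 4 listed, read 17.75 to 21.26 in juvenile and 19.84 to 21.01 in adult controls. The remaining members, Cyp39a1, Cyp2a12, Cyp27a1, Cyp2u1 and Cyp2c68, lay between -0.04 and 0.25.

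**Figure D2:**
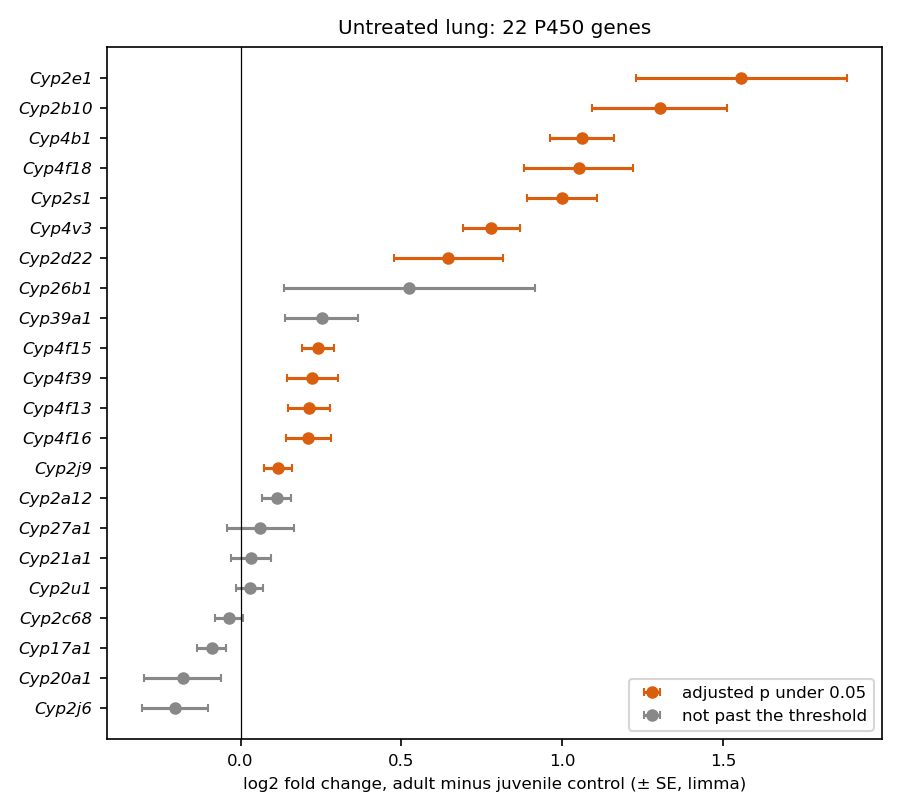
Log2 difference between adult and juvenile controls (points) with its standard error (bars) for the 22 members, 4 animals per group. The 12 genes that passed lie to the right of 0, from 0.12 for Cyp2j9 to 1.56 for Cyp2e1. Cyp4f15 and Cyp4f39 among them met the rule on signal through the adults.

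Genes that serve the P450 enzymes were followed from lists. Of 6 electron transfer genes tested of 8 listed, 3 were higher in adult controls and 0 lower: cytochrome b5 Cyb5a by 0.41 ± 0.08, its reductase Cyb5r3 by 0.61 ± 0.13 and the P450 partner Pgrmc1 by 0.32 ± 0.06 (log2, SE). Of 5 epoxide hydrolases and flavin monooxygenases tested, 3 were higher and 0 lower. Ephx1, which opens the epoxides that P450 enzymes form, was higher by 0.71 ± 0.15 and Fmo5 by 0.53 ± 0.09 (log2, SE). Of 3 genes of haem supply, 1 was lower: Fech, which inserts the iron to form haem, by -1.05 ± 0.20 (log2, SE). Of 5 retinoid genes tested, Aldh1a1, Aldh1a2 and Dhrs3 were higher and Crabp1 was lower. Of 11 nuclear receptors tested, 1, Rarg, was higher.

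The next comparisons asked what each treatment did within an age. The share of members that passed was below that of all genes in each of the 6 comparisons with control. With 22 members a few genes move this share, and whether it differed from that of all genes was not tested. In juveniles 0 of 22 members passed with MV (10.9% of all genes called), 3 with LPS (22.9%) and 2 with LPS+MV (31.3%). In adults 3 passed with MV (31.5%), 6 with LPS (36.0%) and 4 with LPS+MV (42.1%). Of the 16 members above the median on 29 or 30 arrays, 0 passed with MV in juveniles. With LPS 1 rose and 2 fell there, and with LPS+MV 2 rose. In adults 3 of the 16 fell with MV, 1 rose and 3 fell with LPS, and 3 fell with LPS+MV. Of all genes with that property, 12.1%, 24.1% and 33.4% passed in juveniles and 33.8%, 37.8% and 44.5% in adults. The 3 treatment groups of an age share the same control animals.

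With LPS in juveniles, Cyp4v3 rose and Cyp2s1 and Cyp39a1 fell, beside 9.58% and 13.3% of all genes, and 4 members had no overlap between the groups, beside 22.0% of all genes. Cyp4v3 read 331, 307, 251 and 268 after LPS, all above the juvenile controls given earlier. The log2 change was 0.49 ± 0.09 (SE, adjusted p = 0.000109). After LPS+MV it read 192, 181 and 237. The first 2 lay within the control range and replicate 3 above the highest control at 222, with a change of 0.05 (adjusted p = 0.767), and it was lower than after LPS alone by -0.45 ± 0.10 (SE, adjusted p = 0.00196). Of the 22 members it was the 1 that passed between juvenile LPS+MV and LPS, where 15.4% of all genes did. In adults Cyp4v3 read 418, 335, 392 and 361 after LPS and overlapped with its controls, with a change of 0.07 and a 95% interval of -0.12 to 0.25. The change with LPS differed between ages by -0.43 ± 0.12 (SE, adjusted p = 0.0497), in a comparison in which 1 of 22 members and 3.69% of all genes passed. That difference no longer passed without any 1 of 12 of the 16 arrays (adjusted p of 0.0503 to 0.118), or with a term for high Xist (0.0547). In the limma fit over all probe sets the same probe set had an adjusted p of 0.061 for it. The second probe set of Cyp4v3 gave -0.31 there (adjusted p = 0.24).

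Cyp2s1 fell with LPS at both ages. In juveniles it read 210.2, 216, 201 and 179, all below the controls, with a log2 change of -0.41 ± 0.11 (SE, adjusted p = 0.00663). In adults it read 378, 384, 424 and 459, also below all controls, with -0.49 ± 0.11 (SE, adjusted p = 0.000995). The changes at the 2 ages differed by -0.07, with an interval of -0.39 to 0.24. After LPS+MV the arrays read 219, 221 and 310.1 in juveniles and 616, 515, 512 and 400.3 in adults, and both overlapped their controls. These changes were -0.15 (adjusted p = 0.357) and -0.21 (adjusted p = 0.136), and LPS+MV against LPS gave 0.26 in juveniles (adjusted p = 0.142) and 0.28 in adults (adjusted p = 0.115). With MV alone the adults read 636, 652, 659.7 and 646, a change of 0.14 (adjusted p = 0.371), and the juveniles 186, 216 and 259, a change of -0.31 (adjusted p = 0.095).
Of the 10 airway secretory markers, 1 rose and 2 fell with LPS in juveniles, and 1 rose and 3 fell in adults. Their summed intensity was 50660 to 54460 after LPS in juveniles and 62470 to 68070 in adults, against the control ranges given above. This sum weights the brightest markers most and mixes rises with falls. The mean of Hp rose from 4430 to 8250 in juveniles and from 6040 to 8600 in adults. Cyp2f2 fell from 7050 to 5880 and from 11000 to 9110, and Cckar from 161 to 21.9 and from 350 to 24.2. In adults Aldh1a1 fell too. The part of airway secretory cells in the fall of Cyp2s1 was not tested.

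Of the 2 sterol enzymes, Cyp39a1 passed with LPS in juveniles and Cyp27a1 in adults. Cyp39a1, which hydroxylates oxysterols on the way to bile acids, read 92.7, 66.3, 77.1 and 76.9 in juvenile controls and 62.7, 57.8, 40.0 and 53.4 after LPS. The groups did not overlap, and the change was -0.37 ± 0.11 (SE, adjusted p = 0.0187), which no longer passed without juvenile control replicate 1 (0.073) or juvenile LPS replicate 3 (0.0917). In adults the change was -0.25 with an interval of -0.48 to -0.01 (adjusted p = 0.0944). Cyp27a1, the sterol 27-hydroxylase of the alternative bile acid route, read 143, 196, 146 and 127 in adult controls and 105, 110.4, 92.4 and 97.0 after LPS. It fell by 0.46 ± 0.10 on the log2 scale (SE, adjusted p = 0.000941) with no overlap. In juveniles its change with LPS was -0.17 with an interval of -0.38 to 0.05 (adjusted p = 0.267), and the difference between ages was -0.30 with an interval of -0.60 to 0.01 (adjusted p = 0.301).

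In adults given LPS, 1 member rose and 5 fell, beside 12.9% and 23.0% of all genes, and 7 had no overlap with their controls, beside 34.6% of all genes. Besides Cyp2s1 and Cyp27a1, those that fell were Cyp2j9 by 0.20, Cyp4f16 by 0.23 and Cyp4f39 by 0.25 (log2), with adjusted p of 0.000742, 0.00973 and 0.0166. Cyp4f39 read 18.4 to 23.2 after LPS against 27.4 to 36.1 in controls. Without adult control replicate 3 Cyp4f16 no longer passed (0.0566), nor did Cyp4f39 without adult control replicate 2 (0.0717).

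Cyp4f18 rose in juveniles with LPS+MV and in adults with LPS, and fell in adults with MV. In juveniles it read 108, 123, 79.1 and 93.1 after LPS, all above the controls, a change of 0.45 (interval of 0.10 to 0.79, adjusted p = 0.0558). It read 116, 131 and 109 after LPS+MV, also above all controls, and the change was 0.64 ± 0.18 (SE, adjusted p = 0.00886). In adults it read 331, 239, 239 and 294 after LPS, and adult control replicate 3 at 243 lay inside that range. The change was 0.61 ± 0.17 (SE, adjusted p = 0.00613). After LPS+MV adults read 173, 163, 222 and 189, which overlapped the controls, with a change of 0.12 (adjusted p = 0.618), and all 4 arrays were below the LPS arrays, a difference of -0.49 with an interval of -0.83 to -0.14 (adjusted p = 0.0762).
With MV alone Cyp4f18 read 115, 64.2, 92.9 and 85.0 in adults, all below the adult controls. It fell by 0.74 ± 0.17 on the log2 scale (SE, adjusted p = 0.00158), and by 0.59 without adult control replicate 3. In juveniles it read 87.3, 109.6 and 56.4 after MV, with a change of 0.24 (adjusted p = 0.445). The change with MV differed between ages by -0.98 ± 0.25 (SE, adjusted p = 0.0191), and no longer passed without juvenile MV replicate 2 (0.0801). In that comparison 2 of 22 members and 6.13% of all genes passed. With a term for high Xist in the model, the fall in adults had an adjusted p of 0.0595 and the difference between ages 0.111.
The summed neutrophil markers, listed in replicate order, were 5003, 2791 and 4496 in juveniles after MV, 9366, 1823, 4850 and 4040 in adults after MV, and between 20060 and 31790 in adults after LPS. In juveniles they were 6720 to 8323 after LPS and 14550 to 15230 after LPS+MV, and in adults 16640 to 21300 after LPS+MV. Of the 4 markers, 3 rose with LPS in juveniles, 4 with LPS+MV in juveniles, 4 with LPS in adults and 2 with LPS+MV in adults, and 1, Csf3r, fell with MV in adults. The part of these markers' cells in the Cyp4f18 changes was not tested.

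**Figure D3:**
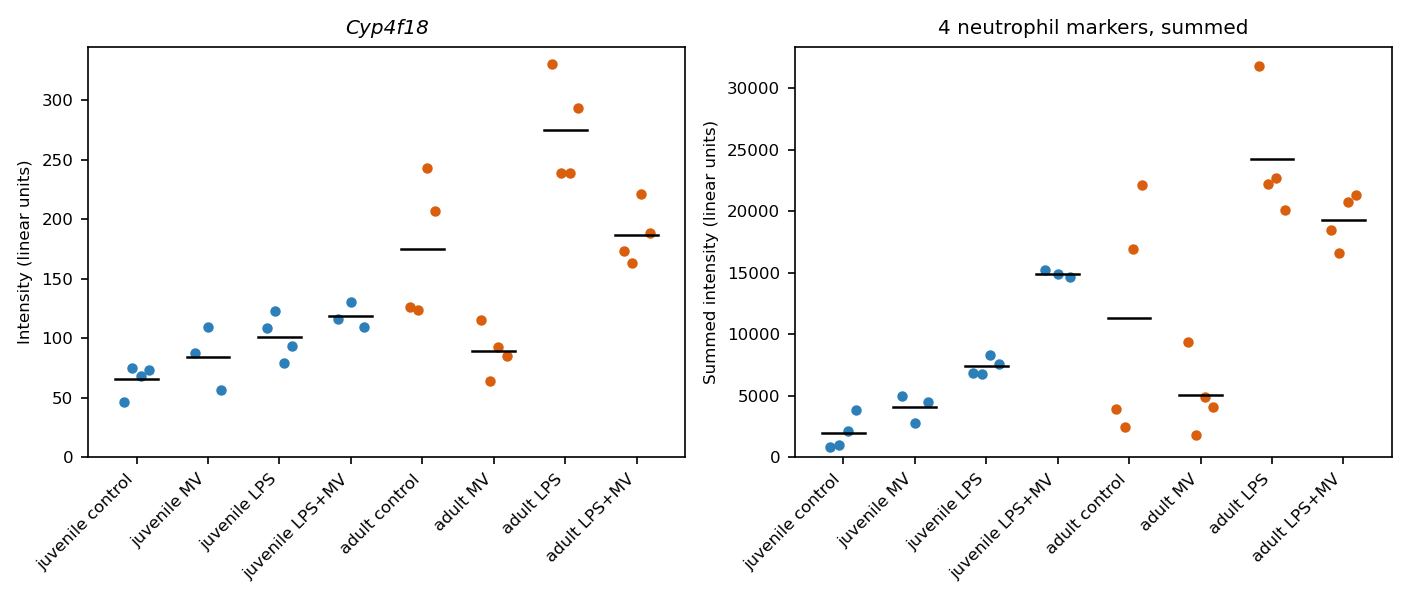
Intensity of Cyp4f18 and the summed intensity of 4 neutrophil markers on each of the 30 arrays, by group (points, blue juvenile and orange adult; linear scales; lines at the group means). Adult control replicates 3 and 4 are high in both panels, at 243 and 207 for Cyp4f18 and 16900 and 22120 for the markers.

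With MV in adults, 3 members fell and 0 rose, against 24.3% and 7.17% of all genes, and 4 had no overlap with controls, beside 30.5% of all genes. Cyp4f16 read 61.1, 67.0, 83.9 and 70.1 in controls and 49.1, 43.3, 35.5 and 53.1 after MV. The groups did not overlap, and it fell by 0.41 ± 0.07 on the log2 scale (SE, adjusted p = 9.39e-05). Its second probe set gave -0.08. In juveniles Cyp4f16 changed by -0.08 with MV (adjusted p = 0.591), and the difference between ages was -0.34 ± 0.10 (SE, adjusted p = 0.0485). The second probe set gave 0.06 for it, of opposite sign (adjusted p = 0.75 over all probe sets), and with the Xist term the first had an adjusted p of 0.216. The difference no longer passed without any 1 of 10 of the 15 arrays (0.06 to 0.157). Cyp4v3 read 299.6, 310.2, 269 and 297 after MV, all below the adult controls, a fall of 0.26 ± 0.09 on the log2 scale (SE, adjusted p = 0.0256). It no longer passed without adult control replicate 1 (0.061) or 2 (0.0819), without adult MV replicate 3 (0.0903) or with the Xist term (0.117). The second probe set of Cyp4v3 gave -0.17 and did not pass (adjusted p = 0.17 over all probe sets).

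With MV in juveniles no member passed, 2 had an unadjusted p below 0.05, and 1 had no overlap with controls, beside 19.2% of all genes. The member with the largest change was Cyp2e1, which read 308, 317 and 146 after MV. Replicates 1 and 2 were above every juvenile control, and replicate 3 was below control replicate 4. The change was 0.93 with an interval of 0.20 to 1.66 (adjusted p = 0.0903). Adults read 171, 393, 324 and 317 after MV, a change of -0.41 with an interval of -1.08 to 0.26 (adjusted p = 0.367), and the difference between ages was -1.34 ± 0.48 (SE, adjusted p = 0.0926). Under the other treatments Cyp2e1 read 87.1 to 122 after LPS and 72.0 to 125 after LPS+MV in juveniles, and 248 to 618 and 155 to 971 in adults. The adult mean was 4.23 times the juvenile mean after LPS, 5.35 times after LPS+MV and 1.17 times after MV, where the ages overlapped.

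With LPS+MV in juveniles, Cyp2b10 and Cyp4f18 rose and no member fell, beside 10.8% and 20.5% of all genes, and 6 had no overlap with controls, beside 32.2% of all genes. Cyp2b10 read 717, 689 and 1438, all above the juvenile controls. The first 2 arrays were just above the highest control at 674, and replicate 3 was well above. The change was 0.75 ± 0.23 (SE, adjusted p = 0.0125), and its 3 probe sets gave 0.78, 0.75 and 0.69. It no longer passed without juvenile LPS+MV replicate 3, where the change was 0.42 (0.175), or without juvenile control replicate 3 (0.054). The juvenile MV array of replicate 3 was likewise high, at 1182 beside 492 and 495. Both are among the 4 arrays with the lowest correlation to their group. Cyp2b10 did not pass in any other treatment comparison: adults read 1548 to 1670.4 after MV, 1329 to 1529.8 after LPS and 1280.0 to 1716 after LPS+MV, with changes of 0.27, 0.06 and 0.19.

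With LPS+MV in adults, 4 members fell and 0 rose, against 27.3% and 14.8% of all genes, and 5 had no overlap with controls, beside 42.2% of all genes. Xist was high on 3 of the 4 arrays of this group and on 0 of the 4 adult control arrays. Cyp4b1 read 3655, 3101, 3573 and 3277, all below the adult controls, and fell by 0.31 ± 0.10 on the log2 scale (SE, adjusted p = 0.0135). After LPS alone it read 3879, 3447, 3417 and 3612, also below all controls, with a change of -0.23 and an interval of -0.44 to -0.03 (adjusted p = 0.071), and after MV 3886, 3927, 3807 and 4126. In juveniles it read 1668 to 2284 after MV, 2101 to 2284 after LPS and 1741 to 2352 after LPS+MV, with changes of -0.10, 0.12 and 0.03. The difference between ages in the change with LPS+MV was -0.34 (adjusted p = 0.215), in a comparison where 0 of 22 members and 2.10% of all genes passed, and 3 members had an unadjusted p below 0.05. Cyp4f16 fell by 0.33 ± 0.07 and Cyp4f15 by 0.18 ± 0.05 (log2, SE), with adjusted p of 0.000424 and 0.00395. The second probe set of Cyp4f16 gave -0.13 and did not pass (adjusted p = 0.11 over all probe sets). Cyp2d22 read 107, 92.2, 107 and 98.9, below all controls, and fell by 0.44 ± 0.17 on the log2 scale (SE, adjusted p = 0.0401), which no longer passed without any 1 of the 8 arrays of that comparison (0.0502 to 0.0872). After LPS alone its change was -0.27 and did not pass (adjusted p = 0.229). Its second probe set read 74.1, 82.5, 72.6 and 81.5 in adult controls, 53.1, 40.5, 46.0 and 48.3 after LPS and 48.6, 58.1, 52.8 and 52.9 after LPS+MV. Neither treated group overlapped the controls there, with differences of -0.48 ± 0.11 and -0.37 ± 0.11 (SE), and adjusted p over all probe sets of 0.0012 and 0.0084. Markers of other lung cells moved too in adults given LPS+MV. Of those tested, 4 of 7 for alveolar type 2 cells fell, as did 3 of 5 for alveolar type 1 cells, 3 of 6 for endothelium and 3 of 6 for fibroblasts and matrix, with median changes of -0.40, -0.22, -0.35 and -0.52. Sftpd of the type 2 list and Pdgfra of the fibroblast list rose. With LPS alone 2, 3, 4 and 4 of them fell, and with MV alone 2, 4, 1 and 3. In both of these, 2 type 2 markers, Sftpa1 and Sftpd, rose, and 0 of the other lists did. The part of these cells in the falls of the members was not tested. Between adult LPS+MV and LPS, 0 of 22 members and 7.04% of all genes passed, and 5 members had an unadjusted p below 0.05.

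Counting the comparison of ages and the 6 of treatments with control, Cyp4f16 and Cyp4f18 each passed in 4 and Cyp2s1 and Cyp4v3 each in 3 of them. Cyp20a1 passed in none: it read 504, 520.0 and 462 after MV, 456, 428, 382 and 389 after LPS and 502, 459 and 337 after LPS+MV in juveniles. In adults it read 506, 485, 389 and 511, then 505, 354, 447 and 459, then 425, 523, 446 and 497. All of the treated adult groups overlapped the controls, and the largest change by the probe set that stands for the gene was -0.31 with LPS in juveniles (interval of -0.56 to -0.07, adjusted p = 0.0575). Its second, dimmer probe set read 154, 130.0, 131 and 112 in juvenile controls and 97.8, 79.5 and 71.3 after LPS+MV, without overlap. That probe set differed by -0.51 ± 0.12 (SE, adjusted p = 0.002 over all probe sets), where the first gave -0.27, so the 2 disagree on whether the gene passed. Cyp26b1 passed in none either. It ranged from 51.0 to 198 after MV, 73.8 to 181 after LPS and 81.3 to 205 after LPS+MV in juveniles, and from 42.8 to 127, 71.8 to 291 and 55.8 to 129 in adults. Its arrays overlapped between all groups compared, and the standard error of its changes was 0.39 in the comparisons of 4 with 4 animals, against a median of 0.09 over all genes in the control comparison.

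**Figure D4:**
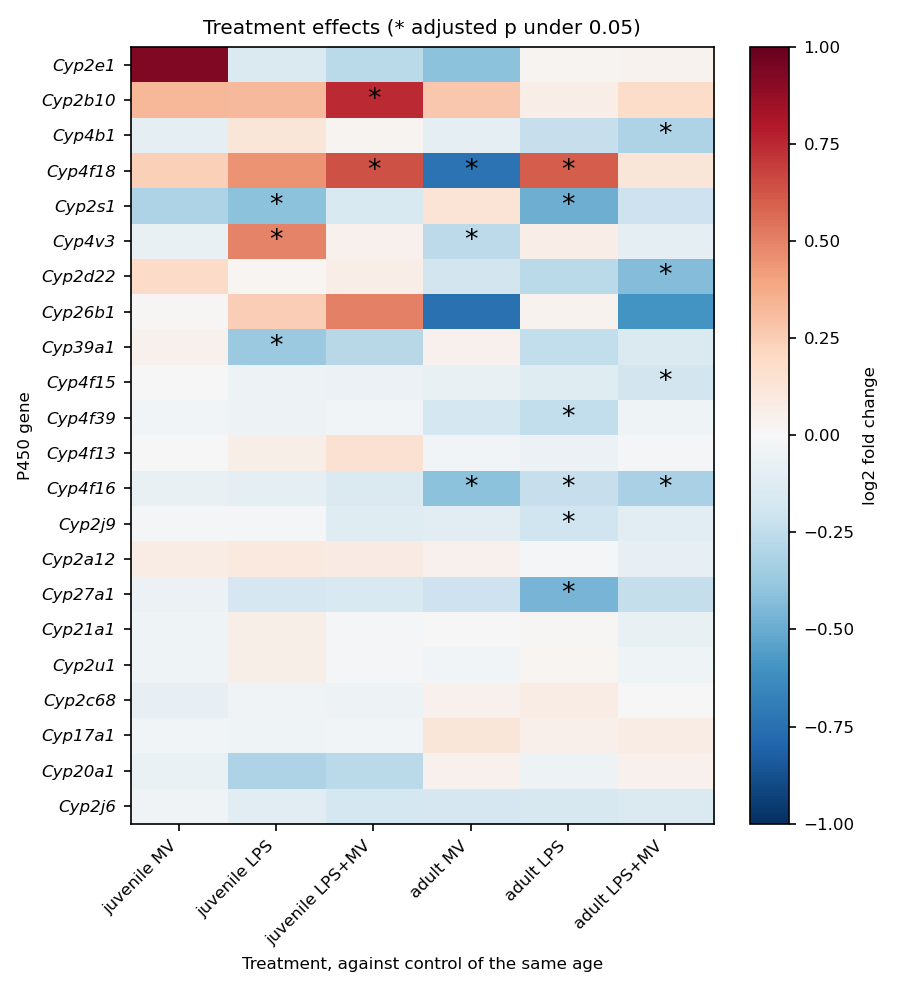
Log2 change against the control of the same age for the 22 members (rows) in the 6 treatment comparisons (columns), with a star where the gene passed. Stars stand at 0 members for juvenile MV, 3 for juvenile LPS, 2 for juvenile LPS+MV, 3 for adult MV, 6 for adult LPS and 4 for adult LPS+MV.

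The genes that serve P450 enzymes were followed in the treated groups as well. Of the 6 electron transfer genes, 3 fell with MV, 3 with LPS and 4 with LPS+MV in adults, and 0 rose. Of all genes, 24.3%, 23.0% and 27.3% fell in these comparisons. In juveniles 2, 1 and 2 of the 6 fell and 0 rose. In adults Cyb5r3 fell by 0.58, 0.59 and 0.55 on the log2 scale with MV, LPS and LPS+MV (SE of 0.13 each). In juveniles it passed with LPS only, where it fell. Of the 5 epoxide hydrolases and flavin monooxygenases, 2, 2 and 3 fell in adults with MV, LPS and LPS+MV. In juveniles 0 of the 5 passed against control in each treatment. Fmo1, an oxidase of nitrogen and sulphur compounds, fell in adults by 0.36, 0.47 and 0.60 (SE of 0.10 each). Rdh10, which makes the retinal that precedes retinoic acid, rose with LPS by 0.90 ± 0.11 in juveniles and 1.10 ± 0.11 in adults, and Aldh1a2, which makes retinoic acid from it, fell in adults by 0.69, 0.62 and 0.47 (SE of 0.13 each) with MV, LPS and LPS+MV. Of the 3 haem genes, Hmox1, which degrades haem, rose by 1.02 ± 0.18 and Alas1, which begins its synthesis, fell by 0.42 ± 0.14 with LPS in adults (log2, SE). With MV in adults Alas1 instead rose by 0.44 ± 0.14 (SE, adjusted p = 0.0152). Fech fell with MV by 1.16 ± 0.22 in juveniles (SE, adjusted p = 0.00145) and by 0.83 ± 0.20 in adults (SE, adjusted p = 0.0026). Of the 11 nuclear receptors tested, 4 fell with MV, 3 with LPS and 3 with LPS+MV in adults, beside the same shares of all genes, and Rarg was among them in each. In juveniles 1 rose with MV (Rarg, by 0.32), 1 rose with LPS (Nr1h3) and 1 fell with LPS+MV (Rxra).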

How the data were processed

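Total RNA of 30 whole lungs was labelled with biotin and hybridized to Affymetrix mouse 430 2.0 arrays, 1 animal per array. The deposited intensity values, on a linear scale, were summarised per probe set by the authors. MAS5 is the only tool in the submitters' processing notes, and how the arrays were summarised and normalized is not given in the sources used here, so the fold changes of dim genes depend on an unknown background step. The number of arrays limits the precision.

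Intensities were taken as log2(intensity + 32). A probe set was kept when above its array's median on 3 or more arrays, and the probe set with the highest mean stood for a gene. limma 3.58.1 in R 4.3.3 (lmFit, eBayes with an intensity trend, two-sided) was fitted on 13089 genes and all 30 arrays, with 8 group means and 12 comparisons, adjusted by Benjamini-Hochberg within each, at a threshold of 0.05. The model was tested on simulated data. Figures were drawn with matplotlib 3.10.9.

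The members, gene lists and tests were chosen with earlier results of these data known. Any member could be named. Values on every array are given for members that passed with an absolute log2 change of at least 0.5 and for the 5 with the highest mean intensity, and other values by range. A few more per-array values were added after they were seen. Another normalization, pseudocount, filter, choice of probe set, trend, replicate block, Xist term and set of arrays were tried, with each array left out in turn. Same-numbered animals had correlated deviations in some pairs only (-0.22 to 0.26), so the numbers were not taken as pairs. 4 P450 probe sets that name several genes were left out.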

Additional observations from a re-analysis of the deposited data

Results flagged for a closer look

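In 6 of 132 groups of 4 arrays tested, a single array lay far from the other 3, where chance alone gives about 1 in 20 such groups. Cyp2e1 in juvenile control replicate 4 read 152, against 99.6 to 104 on the other juvenile controls. Cyp4f39 in adult LPS+MV replicate 2 read 46.9, against 22.1 to 24.2, and in juvenile LPS replicate 2 it read 14.0, against 21.0 to 22.1. Cyp2a12 in juvenile LPS replicate 3 read 34.3, against 25.4 to 26.7. Cyp4f13 in adult MV replicate 1 read 53.1, against 60.5 to 61.4. Cyp2u1 in adult LPS+MV replicate 4 read 18.9, against 21.8 to 22.2.

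The change with treatment differed between ages for 3 members, tested as the interaction in limma with Benjamini-Hochberg adjustment, where 6.13% of all genes passed with MV and 3.69% with LPS. With MV, the adult minus the juvenile log2 change was -0.98 for Cyp4f18 (adjusted p = 0.0191) and -0.34 for Cyp4f16 (adjusted p = 0.0485). With LPS it was -0.43 for Cyp4v3 (adjusted p = 0.0497). The second probe set of Cyp4f16 gave 0.06, of opposite sign (adjusted p = 0.75 over all probe sets). That of Cyp4v3 gave -0.31, of the same sign, and did not pass (adjusted p = 0.24 over all probe sets). With a term for high Xist in the model none of the 3 passed, with adjusted p of 0.111 for Cyp4f18, 0.216 for Cyp4f16 and 0.0547 for Cyp4v3.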

How the results depend on the processing

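Of the 34 calls of a member in a comparison, 24 passed under each of the 9 alternatives, 21 without each array in turn and 20 under both, and 0 changed direction. The counts of members that passed changed by more than 1.5 times as follows, and the cause was not tested. Without the 4 arrays that stood apart, chosen after seeing the data, juvenile MV had 1 member instead of 0, juvenile LPS 7 instead of 3, adult MV 6 instead of 3, adult LPS+MV 7 instead of 4, the age difference with MV 5 instead of 2 and that with LPS 2 instead of 1. With the Xist term, juvenile MV had 1, adult MV 1, and the age differences with MV and LPS 0. With only the compared groups in the fit, juvenile LPS+MV had 1 instead of 2, adult MV 5, adult LPS+MV against LPS 1 instead of 0, and the age differences with MV 1 and LPS 0. With no filter on dim probe sets (66 genes of the family tested), adult MV had 7, adult LPS+MV against LPS 1, and the age differences 1 and 0. With the mean over probe sets, adult MV had 5 and the age differences 1 and 0. With quantile normalization or a pseudocount of 1, the age difference with MV had 1.

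With the replicate block, juvenile MV had 1 (Cyp2e1, adjusted p = 0.0444) and the age differences with MV 1 and with LPS 0. Every same-numbered correlation was above 0.1 in none of the comparisons, so the numbers were not taken as pairs. Leaving out single arrays gave counts of 8 to 11 for age (12 with all arrays), 0 to 0 for juvenile MV, 2 to 4 for juvenile LPS, 1 to 3 for juvenile LPS+MV, 2 to 5 for adult MV, 5 to 8 for adult LPS, 3 to 5 for adult LPS+MV, 1 to 1 for juvenile LPS+MV against LPS, 0 to 1 for adult LPS+MV against LPS, and 0 to 5, 0 to 2 and 0 to 2 for the age differences with MV, LPS and LPS+MV. The age difference with MV had 0 members without juvenile MV replicate 2 and 5 without juvenile MV replicate 3. Of the age calls, Cyp4f16 had an adjusted p of 0.298 with the mean over its probe sets, and Cyp2j9 missed the threshold under 7 of 9 alternatives. Members near the array median have only a small signal over background, which limits their fold changes.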

Other observations

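Adult LPS+MV replicate 2, which correlated least with its own group, had high intensities of fat genes that were chosen after the data were seen. Adipoq, a hormone of fat cells, read 2150 there and 47.2 to 809 on the other 29 arrays. Ucp1, of brown fat, read 669 against 12.7 to 175, and Car3 read 6160 against 299 to 3170. Cyp2e1 read 409.6 on that array, inside the range of adult controls, and Cyp4f39 read 46.9, above its other 3 arrays.

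Without the rule on signal, 5 further genes of the family passed, 7 times in all, each with log2 changes of 0.22 or less in size and intensities near or below the array median. With MV in adults 4 of the 44 further genes passed, Cyp26a1, Cyp2c29, Cyp2c38 and Cyp2c65, all higher, beside 22.7% of all 18193 genes of that fit. Cyp24a1, the vitamin D 24-hydroxylase, was higher with LPS in adults by 0.11 (log2, adjusted p = 0.00048 by limma), where 1 of 44 and 25.8% of all genes passed. It was lower after LPS+MV than after LPS in adults, with -0.08 (adjusted p = 0.023), beside 4.59% of all genes. Cyp2c65 was higher with LPS+MV in adults by 0.05 (adjusted p = 0.033), beside 29.7% of all genes.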
